A study of Rattus norvegicus with 9 samples.

Results

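The genes described here encode the subunits of the proteasome and the ubiquitin conjugating (E2) enzymes, as measured in rat ureteric buds grown in culture. Members were taken by gene symbol from the array platform's probe-to-gene table: every probe set whose symbol begins with Psma to Psmg and a digit, or with Ube2 and a letter, leaving out Ube2c. The rule found 95 of the 15866 probe sets. Of these, 84 carry 1 symbol and stand for 69 genes, 43 with a Psm name (46 probe sets) and 26 with a Ube2 name (38 probe sets). The other 11 list several genes and were attributed to none, so no value is given for Psmb6 or Psme3. Psmc3ip and Psme3ip1 match the naming rule although their products are not proteasome subunits, and they stay in the totals.

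Each sample pooled the RNA of 3 ureteric buds taken from Sprague-Dawley rat embryos on embryonic day 13 and freed of mesenchyme. Culture lasted 4 days, in 50% Matrigel mixed with 50% collagen and with 250 ng/ml FGF1 and 125 ng/ml GDNF in every group. To this the BSN group added conditioned medium from a cell line of metanephric mesenchyme, the HRG group 500 ng/ml heregulin alpha, and the PTN group about 3 µg/ml pleiotrophin purified from that conditioned medium. Each group had 3 arrays (Affymetrix RAE230A), which the series design calls biological replicates, and no group received FGF1 and GDNF alone. The labels disagree on whether PTN buds branched, so the groups are named here by medium only. Because each sample is whole buds, fewer cells of a type and less RNA per cell cannot be told apart.

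Proteins to be destroyed are tagged with ubiquitin by the relay of an activating (E1), a conjugating (E2) and a ligating (E3) enzyme, and the E2 often sets the kind of ubiquitin chain that is built. The proteasome that degrades them is a barrel of alpha and beta rings, the core particle, capped by a regulatory particle whose ATPases unfold the substrate and whose other subunits bind and trim the ubiquitin chain. Interferon can replace the catalytic beta subunits Psmb6, Psmb7 and Psmb5 with Psmb9, Psmb10 and Psmb8, which gives the immunoproteasome, known for making peptides for class I MHC.

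Values are signal intensities as deposited. Over the 10106 probe sets kept for testing, on the log2 scale, arrays of the same group correlated at r = 0.946 to 0.979. Arrays of different groups correlated at 0.882 to 0.937. The ratio of 3' to 5' signal of control probes is a sign of RNA length, here of RNA amplified by a double in vitro transcription. For actin it averaged 33.2 ± 4.91 in BSN, 25.2 ± 5.86 in HRG and 16.6 ± 1.4 in PTN (mean ± SD, n = 3 each). For GAPDH it was 4.57 ± 1.11, 2.92 ± 0.802 and 5.14 ± 1.98. The actin ratios of PTN (15.3 to 18.1) lay below those of BSN (28 to 37.8) and HRG (18.6 to 29.6), which overlapped. The GAPDH ratios of HRG (2.01 to 3.49) lay below those of BSN (3.75 to 5.83), and those of PTN (2.97 to 6.85) overlapped both. The part of these ratios in the differences given here was not tested. All 9 of the ureteric bud markers on the array were kept, and their summed signal ranged over 106533 to 118073 (BSN), 92886 to 97126 (HRG) and 86484 to 110051 (PTN). Within that list 5 of 11 kept probe sets were lower in HRG than in both other media, those of Ret, Gfra1 and Lhx1. Going the other way, 3 passed as higher in HRG than in PTN: Krt18 (log2 0.92), Cdh16 (log2 0.71) and Krt8 (log2 0.67). Against BSN 0 were higher in HRG. Ret, the GDNF receptor of the bud tip, averaged 13512 ± 1883 in BSN, 918 ± 171 in HRG and 18756 ± 850 in PTN on the probe set with the highest signal (14.5-fold lower in HRG than in BSN, adjusted p = 1.8e-08). Of the marker genes of other cells on the array, 1 of 4 was kept for cap mesenchyme and nephron (Wnt4), 4 of 8 for stroma, 1 of 3 for endothelium and 3 of 8 for leukocytes. Wnt4 averaged 349 ± 163 in BSN, 2146 ± 313 in HRG and 263 ± 231 in PTN. It passed in limma as higher in HRG than in BSN (adjusted p = 0.00761) and PTN (adjusted p = 0.00111). The sums that follow cover all probe sets of a list, kept or not, in the order BSN, HRG and PTN. They were 1044 to 1718, 2976 to 3703 and 765 to 1500 for cap mesenchyme and nephron. The higher sum in HRG lies mostly in Wnt4. The genes of that list that were not kept averaged 83.8, 70.9 and 77 (Gdnf), 159, 163 and 136 (Fgf8), and 418, 475 and 375 (Wt1, probe set with the higher signal). For stroma the sums were 5152 to 5384, 3458 to 4758 and 4930 to 5149, and for endothelium 1737 to 1792, 1170 to 1409 and 1200 to 1876. The part of these cells in the results was not tested.

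Most members, like most of all kept probe sets, passed in no comparison. Only probe sets whose signal exceeded the 40th percentile of the array on 3 or more arrays were tested, which left 78 of the 84 member probe sets (66 of the 69 genes). Psmb9, Psmb10 and Ube2d2b were the genes with no probe set left. Of the 78, 26 (33.3%) passed in at least 1 comparison, against 38.7% of all kept probe sets (limma, Benjamini-Hochberg adjusted p under 0.05 over all 10106 kept probe sets), and 52 passed in none.

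Heregulin against conditioned medium gave the fewest calls among the members. There 2 members were higher and 2 lower in HRG, 5.13% of those kept, against 15.8% of all kept probe sets (6.92% higher and 8.86% lower). Heregulin against pleiotrophin gave 6 higher and 13 lower in HRG, 24.4% of the members, against 25.8% of all (14.1% higher and 11.7% lower). Pleiotrophin against conditioned medium gave 10 higher and 6 lower in PTN, 20.5% of the members, against 22.5% of all (9.15% higher and 13.4% lower). The last comparisons share the PTN arrays, so a gene that stands apart in PTN is counted in both. In these last comparisons the share of members called was near the background, and in HRG against BSN it was below it.

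The differences among the kept members were small. An absolute log2 difference of at least 1 was reached by 0 kept members in HRG against BSN, where 5.24% of all kept probe sets reached it. It was reached by 1 kept member in HRG against PTN (7.64% of all) and 1 in PTN against BSN (4.47% of all). These counts leave out the member probe sets that were not kept, among them those of the immunoproteasome genes Psmb9 and Psmb10. The median absolute log2 difference of the kept members was 0.162, 0.241 and 0.179 in the order HRG against BSN, HRG against PTN and PTN against BSN, and over all kept probe sets it was 0.226, 0.29 and 0.291. The kept members were also brighter: 71.8% had a mean log2 signal above the median of all kept probe sets, and their median percentile was 75.2. Their median SE was 0.158, against 0.174 over all. The part of signal level in their smaller differences was not tested. The split into higher and lower depended on how the arrays were scaled. Median centring of every array gave a split among the members of 3 higher to 1 lower, 1 to 17 and 15 to 0, and after quantile normalization 3 to 2, 2 to 11 and 6 to 4, in the same order. Centring moved the median of all kept probe sets in PTN against BSN from -0.11 to 0.1 on the log2 scale.

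**Figure D1:**
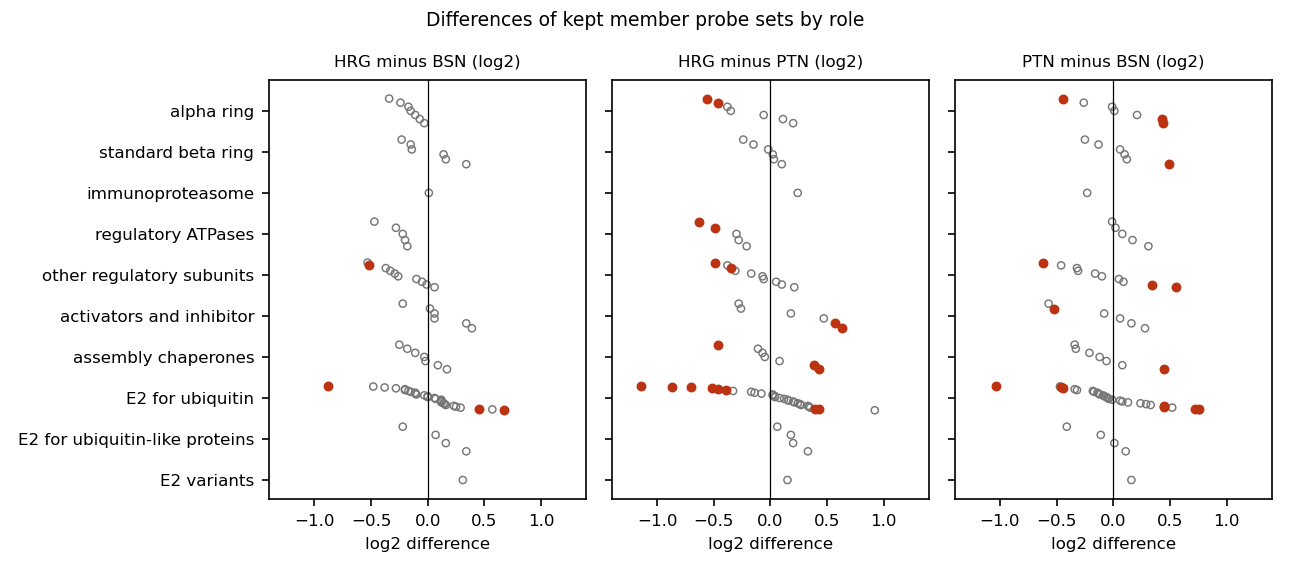
Log2 difference (horizontal axis) of each kept member probe set, by role (rows), in the 3 comparisons (panels, first group minus second); filled points passed at an adjusted p under 0.05 and open points did not. Most points lie near 0, and the regulatory particle subunits lie mostly below 0 in both comparisons with HRG first.

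The alpha ring, which forms the outer faces of the core and gates its entrance, had all 7 of its genes measured. In PTN against BSN 2 rose and 1 fell, 42.9% of the 7 against 22.5% of all kept probe sets. In HRG against PTN 2 were lower in HRG, 28.6% of the 7 against 25.8% of all. In HRG against BSN none passed, against 15.8% of all, although all 7 differences were below 0 (log2 -0.34 to -0.03). Their median log2 difference in that comparison was -0.15, beside -0.04 over all kept probe sets, and limma gave 1 of the 7 an unadjusted p under 0.05.

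Psma6, an alpha subunit, gave the smallest adjusted p of any core gene. Its signals were 24010, 22210 and 23305 in BSN, 21713, 21368 and 21255 in HRG, and 33840, 29495 and 31365 in PTN. The PTN arrays all lay above every BSN and HRG array. PTN was 1.36-fold above BSN (log2 0.44, SE 0.105, adjusted p = 0.00982) and HRG 1.47-fold below PTN (log2 -0.56, SE 0.105, adjusted p = 0.00196). The difference between HRG and PTN passed under all 19 alternatives, and that between PTN and BSN was lost after quantile normalization alone (log2 0.28, adjusted p = 0.0532).

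Psma1 had the same order of groups. It read 8126, 7736 and 7802 in BSN, 6793, 8196 and 8201 in HRG, and 11870, 10036 and 10068 in PTN. Again no PTN array overlapped the others. PTN was 1.35-fold above BSN (log2 0.43, SE 0.129, adjusted p = 0.0314) and HRG 1.38-fold below PTN (log2 -0.46, SE 0.129, adjusted p = 0.019). Without HRG replicate 1 the latter call was lost (adjusted p = 0.0804). The former was lost after quantile normalization (0.0766) and without BSN replicate 1 (0.0653), BSN replicate 2 (0.0815), BSN replicate 3 (0.092) or PTN replicate 3 (0.0533).

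Psma4, also of the alpha ring, went the other way. Its signals were 10688, 8650 and 10364 in BSN, 8195, 8107 and 8772 in HRG, and 8302, 6752 and 6807 in PTN. PTN and BSN did not overlap, and HRG overlapped both. PTN was 1.36-fold below BSN (log2 -0.44, SE 0.135, adjusted p = 0.0333), a call lost with median centring (log2 -0.23, adjusted p = 0.248), in the fit of these groups alone (0.0668), and when BSN replicate 1 (0.116), BSN replicate 3 (0.115), HRG replicate 2 (0.0505), PTN replicate 2 (0.104) or PTN replicate 3 (0.106) was left out. The alpha ring genes thus did not move together between PTN and BSN. Psma2, Psma3, Psma5 and Psma7 passed in no comparison, with log2 differences of -0.26 to 0.21 in PTN against BSN.

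The standard beta ring holds the catalytic sites, in Psmb5, Psmb6 and Psmb7, and the structural subunits. It had 6 genes with a probe set of their own, and 1 call. That call was in PTN against BSN, 16.7% of the 6 against 22.5% of all kept probe sets. Psmb4, a structural subunit, read 16816, 21982 and 20617 in BSN, 26336, 23185 and 25130 in HRG, and 23884, 25819 and 34193 in PTN. All HRG and PTN arrays lay above all BSN arrays. PTN was 1.4-fold above BSN (log2 0.49, SE 0.15, adjusted p = 0.0342), which was lost in 7 of 19 alternatives, among them quantile normalization (0.123) and the fits without BSN replicate 1 (0.139), BSN replicate 3 (0.0711) or PTN replicate 3 (0.139).

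Psmb5, the chymotrypsin-like catalytic subunit, read 22689, 20562 and 24264 in BSN, 21800, 16963 and 19150 in HRG, and 16290, 17601 and 23616 in PTN. Psmb7, the trypsin-like catalytic subunit, read 3725, 4324 and 3565 in BSN, 3032, 3598 and 3901 in HRG, and 4527, 3682 and 4222 in PTN. The groups overlapped for both genes and neither passed in any comparison (smallest adjusted p 0.252). Psmb1, Psmb2 and Psmb3 did not pass either, with log2 differences between -0.15 and 0.16.

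Of the 3 immunoproteasome genes, Psmb8 alone was kept, and it passed in no comparison (limma gave it no unadjusted p under 0.05 either). Psmb9 and Psmb10 were the only proteasome subunits that were not kept. The signals of Psmb8 were 810, 780 and 862 in BSN, 944, 796 and 747 in HRG, and 715, 677 and 692 in PTN. BSN and HRG overlapped, and all PTN arrays lay below them. The log2 differences were 0.01 for HRG against BSN (adjusted p = 0.975), 0.24 for HRG against PTN (adjusted p = 0.358) and -0.23 for PTN against BSN (adjusted p = 0.385), with an SE of 0.181 each.

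Psmb9 stayed below the 40th percentile on all 9 arrays and gets no fold. It read 324, 378 and 44.3 in BSN, 32, 125 and 44.6 in HRG, and 43.8, 139 and 123 in PTN, so the BSN arrays spread over the range of all groups. Psmb10 lay above the 40th percentile on 2 arrays and was not kept. Its signals were 318, 118 and 403 in BSN, 715, 717 and 711 in HRG, and 217, 258 and 105 in PTN. The HRG arrays were all higher than the BSN and PTN arrays. In the fit without the filter, HRG against BSN did not pass (adjusted p = 0.0643) and HRG against PTN did (adjusted p = 0.0139). The BSN and PTN means of Psmb10, 280 and 193, lie below the mean 40th percentile of their groups (750 and 632), so no size of difference is given.

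**Figure D2:**
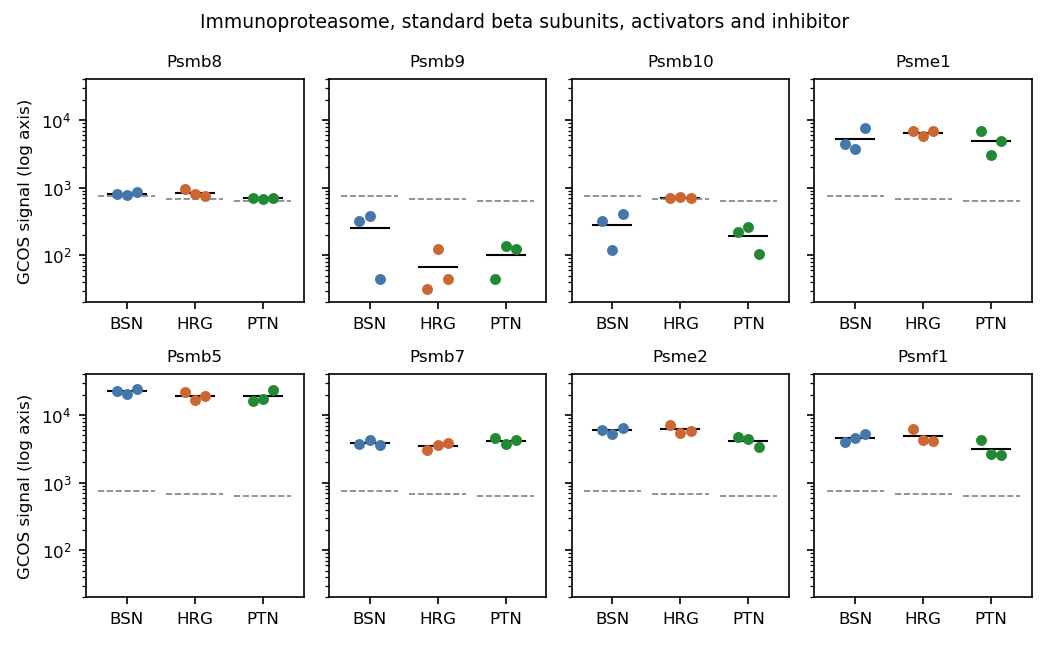
Signal on a log axis of the immunoproteasome subunits, their standard counterparts, the activator genes and the inhibitor, by medium, with 1 point per array, a black line at the group mean and a dash at the mean 40th percentile of the group's arrays. Psmb9 and, outside HRG, Psmb10 lie under the dash, and the 3 HRG points of Psmb10 (711 to 717) lie above all its other points.

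To look for unequal change of RNA within a pair, each immunoproteasome gene was set against its standard counterpart on the same array. Exchange of the subunits themselves is a matter of protein, which was not measured. The Psmb8 signal relative to Psmb5 differed between HRG and BSN by log2 0.24 (exact two-sided permutation p = 0.1, adjusted p = 0.2 over 6 tests), between HRG and PTN by 0.22 (exact p = 0.4, adjusted 0.6) and between PTN and BSN by 0.02 (exact p = 0.9, adjusted 0.9). After quantile normalization these differences were 0.43, 0.01 and 0.42 in the same order, so which groups differed depended on the scaling. Psmb10 relative to Psmb7 was higher on all HRG arrays than on any BSN or PTN array (exact p = 0.1 and adjusted p = 0.2 each), and PTN and BSN overlapped (exact p = 0.5, adjusted 0.6). The size is not given, since Psmb10 was below the 40th percentile in BSN and PTN. With 3 arrays against 3, 0.1 is the smallest p this test can give, so none could pass. The pair of Psmb9 and Psmb6 was not compared because the Psmb6 probe set is shared with Psmb6l1.

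Genes of peptide loading and the interferon response stood beside these values. Of the 14 kept probe sets of that list, 1 was higher and 1 lower in HRG against BSN, 4 were higher in HRG against PTN, and 3 were lower in PTN against BSN. Of all kept probe sets 15.8%, 25.8% and 22.5% were called in these comparisons. B2m, the light chain of class I MHC, averaged 4527 ± 507 in BSN, 3645 ± 184 in HRG and 1741 ± 371 in PTN on the probe set with the higher signal (SD, n = 3 each), 2.62-fold lower in PTN than in BSN (adjusted p = 0.000161). Mx2, an interferon-induced GTPase, averaged 1005 ± 596, 2890 ± 1135 and 576 ± 318 in the same order on its kept probe set, and passed in HRG against BSN (adjusted p = 0.0312) and against PTN (adjusted p = 0.00268). Tap1 and Tap2, the peptide transporter genes that alternate with Psmb8 and Psmb9 on the chromosome, were not kept. Leukocytes express the immunoproteasome strongly: 3 of their 9 marker probe sets were kept, and the summed signal of the list was 4406 to 4794 (BSN), 2620 to 3082 (HRG) and 3395 to 4308 (PTN). The kept markers did not move together. Coro1a averaged 879 ± 235, 95.6 ± 30.5 and 1036 ± 164 in that order, Cd74 averaged 952 ± 190, 604 ± 66.8 and 538 ± 146, and Csf1r averaged 821 ± 132, 814 ± 79.8 and 689 ± 164. Ptprc (CD45), their defining marker, was kept on neither of its probe sets, at means of 150 and 166 in BSN, 69.3 and 181 in HRG, and 141 and 155 in PTN. Their part in the immunoproteasome values was not tested.

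Promoter sequences are shown for the immunoproteasome genes, of which 2 were not kept, and for Psma6 and Psma4, which went in opposite directions in PTN. They are RefSeq sequences of the GRCr8 build, 300 bases each, with 250 before and 50 after the gene's start, written 5' to 3' on the gene's strand. RefSeq orders the genes on chromosome 20 as Tap2, Psmb8, Tap1 and Psmb9. Capitals mark matches, on either strand, to any of 4 motifs: TGACNNNGC (core of the antioxidant response element), GAAANNGAA (core of the interferon-stimulated response element), CCAAT (the CCAAT box) and GGGCGG (the GC box).
Psmb8 chr20:4656982-4657281 (minus strand): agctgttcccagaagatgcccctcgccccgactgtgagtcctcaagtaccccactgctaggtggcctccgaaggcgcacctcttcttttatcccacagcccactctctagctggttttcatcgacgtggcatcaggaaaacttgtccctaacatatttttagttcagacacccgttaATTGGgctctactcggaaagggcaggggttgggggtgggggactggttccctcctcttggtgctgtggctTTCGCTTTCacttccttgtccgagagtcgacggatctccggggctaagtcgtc
Psmb9 chr20:4668750-4669049 (plus strand): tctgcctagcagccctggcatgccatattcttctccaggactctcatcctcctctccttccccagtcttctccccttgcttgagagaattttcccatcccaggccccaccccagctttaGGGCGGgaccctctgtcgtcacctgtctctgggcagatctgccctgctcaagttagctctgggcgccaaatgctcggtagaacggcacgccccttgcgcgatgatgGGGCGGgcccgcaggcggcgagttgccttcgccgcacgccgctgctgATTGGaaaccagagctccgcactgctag
Psmb10 chr19:50743243-50743542 (minus strand): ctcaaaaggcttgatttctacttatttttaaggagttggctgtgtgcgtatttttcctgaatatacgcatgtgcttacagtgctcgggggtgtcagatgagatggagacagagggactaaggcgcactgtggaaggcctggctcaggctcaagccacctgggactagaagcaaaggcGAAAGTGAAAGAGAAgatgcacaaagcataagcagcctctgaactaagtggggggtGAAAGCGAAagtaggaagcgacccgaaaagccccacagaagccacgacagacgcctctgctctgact
Psma6 chr6:78514097-78514396 (plus strand): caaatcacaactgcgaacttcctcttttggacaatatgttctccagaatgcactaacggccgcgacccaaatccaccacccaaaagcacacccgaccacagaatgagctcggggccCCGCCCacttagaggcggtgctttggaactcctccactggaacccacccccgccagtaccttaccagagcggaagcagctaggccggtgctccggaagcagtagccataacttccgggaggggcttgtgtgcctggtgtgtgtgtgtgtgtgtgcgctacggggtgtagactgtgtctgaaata
Psma4 chr8:64236270-64236569 (plus strand): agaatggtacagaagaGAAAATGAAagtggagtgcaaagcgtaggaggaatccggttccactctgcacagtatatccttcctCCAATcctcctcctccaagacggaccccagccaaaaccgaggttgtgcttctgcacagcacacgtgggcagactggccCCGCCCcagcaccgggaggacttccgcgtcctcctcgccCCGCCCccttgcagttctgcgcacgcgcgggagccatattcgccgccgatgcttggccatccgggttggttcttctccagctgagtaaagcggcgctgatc

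Psmb8 held 1 match to GAAANNGAA, Psmb10 held 3, and Psmb9 held 0. The CCAAT box had 1 match each in Psmb8 and Psmb9, and the GC box 2 in Psmb9. Psma4 held 1 match to GAAANNGAA and Psma6 held 0. Promoters were found for 62 of 67 member genes, leaving out the genes that are not proteasome subunits, and matches to different motifs overlapped in 1. GAAANNGAA was present in 9 of the 62 (14.5%) and in 9.71% of all 33469 promoters of that length. The search was first made with a longer form, ending in 1 further A, which was in 11.3% of the members' promoters and 3.92% of all. The shorter form was taken after those counts were seen, and both gave 2 of the 3 immunoproteasome promoters. TGACNNNGC was in 14 member promoters (22.6%, against 12.1% of all), CCAAT in 28 (45.2%, against 37.5%) and GGGCGG in 43 (69.4%, against 33.1%). These are matches of letters only and were not set against the differences between media.

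Few subunits of the regulatory particle passed, a share below or near that of all kept probe sets. Of its 15 kept probe sets (14 genes), 1 passed as lower in HRG than in BSN, which is 6.67% of them against 15.8% of all. There 14 of 15 differences were below 0 and the median was -0.26, beside -0.04 over all kept probe sets. In that comparison limma gave 6 of the 15 an unadjusted p under 0.05, all lower in HRG. Over all 10106 kept probe sets it gave 1570 lower and 1254 higher. Against PTN 4 were lower in HRG, 26.7% of them against 25.8% of all, 12 of 15 differences were below 0 and the median was -0.28, beside 0.08 over all. In PTN against BSN 2 were higher and 1 lower, 20% of them against 22.5% of all, with a median of 0.02 beside -0.11 over all. The standard core, with 13 kept probe sets, had 0 calls by limma (2 at an unadjusted p under 0.05) and a median of -0.14 in HRG against BSN. It had 2 lower (15.4% of the 13) and a median of -0.06 against PTN. In PTN against BSN it had 3 higher and 1 lower (30.8% together) and a median of 0.06. After quantile normalization the regulatory and core medians were -0.29 and -0.17 in HRG against BSN, and -0.26 and -0.08 in HRG against PTN. Median centring shifts all genes alike and cannot change the gap between them. The difference between core and regulatory particle was not tested.

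The 5 ATPases measured were all below 0 in both HRG comparisons (log2 -0.47 to -0.18 against BSN and -0.63 to -0.21 against PTN). None passed against BSN (2 had an unadjusted p under 0.05 in limma), and 2 passed against PTN. The latter were 40% of the 5, against 25.8% of all kept probe sets. Psmc1 (Rpt2) read 8789, 8232 and 8072 in BSN, 6415, 7315 and 8537 in HRG, and 9665, 10132 and 11352 in PTN. The PTN arrays lay above all others, and HRG overlapped BSN. HRG was 1.4-fold below PTN (log2 -0.49, SE 0.136, adjusted p = 0.0182), which was lost without HRG replicate 1 (0.0794), HRG replicate 2 (0.056) or PTN replicate 3 (0.0708).

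Psmc5 (Rpt6) read 9481, 8962 and 8592 in BSN, 4490, 7599 and 8072 in HRG, and 10199, 9157 and 11076 in PTN. HRG lay below both other groups on every array, and its first array was far below the rest. HRG was 1.55-fold below PTN (log2 -0.63, SE 0.193, adjusted p = 0.0285). Without HRG replicate 1 the log2 difference was -0.37 and no longer passed (0.0902), and the call was also lost without PTN replicate 3 (0.0913), without the filter (0.05001) and in the fit of these groups alone (0.0611). Psmc2, Psmc3 and Psmc4 passed in no comparison.

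Among the subunits that are not ATPases, Psmd3 (Rpn3), a scaffold subunit of the lid, was the only one called in HRG against BSN. It read 4675, 4792 and 4218 in BSN, 2763, 3428 and 3387 in HRG, and 3212, 2666 and 3050 in PTN. BSN lay above all HRG and PTN arrays, which overlapped each other. HRG was 1.43-fold below BSN (log2 -0.52, SE 0.139, adjusted p = 0.0227), a call lost with median centring (0.0994) and on leaving out BSN replicate 1 (0.0734), BSN replicate 2 (0.0825) or HRG replicate 1 (0.0868). PTN was 1.53-fold below BSN (log2 -0.62, SE 0.139, adjusted p = 0.00786), which was lost with median centring alone (log2 -0.4, adjusted p = 0.0829).

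Psmd6 (Rpn7), also a lid subunit, went the other way in PTN. Its signals were 9086, 9400 and 8792 in BSN, 8267, 10112 and 10120 in HRG, and 14519, 12594 and 12935 in PTN. The PTN arrays stood clear of the overlapping BSN and HRG arrays. PTN was 1.47-fold above BSN (log2 0.55, SE 0.127, adjusted p = 0.00869), a call kept under all 19 alternatives, and HRG was 1.41-fold below PTN (log2 -0.49, SE 0.127, adjusted p = 0.0122), a call lost without HRG replicate 1 (0.0551). Psmd3 and Psmd6, both of the lid, were thus called in opposite directions between PTN and BSN.

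Psmd2 (Rpn1), the base subunit that docks shuttle proteins, read 15581, 17076 and 17588 in BSN, 16373, 15767 and 17756 in HRG, and 20824, 19834 and 23159 in PTN. PTN did not overlap the other groups. Its differences were near the threshold: PTN was 1.27-fold above BSN (log2 0.34, SE 0.116, adjusted p = 0.0498, lost in 13 of 19 alternatives) and HRG 1.28-fold below PTN (log2 -0.35, adjusted p = 0.0402, lost in 11 of 19). The alternatives that ended these calls include every array left out except PTN replicate 1 for PTN against BSN, with adjusted p up to 0.166. For HRG against PTN they include every array except PTN replicate 1 and PTN replicate 2, with adjusted p up to 0.136. Psmd1, Psmd4, Psmd7, Psmd8, Psmd11 and Psmd13 passed in no comparison.

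**Figure D3:**
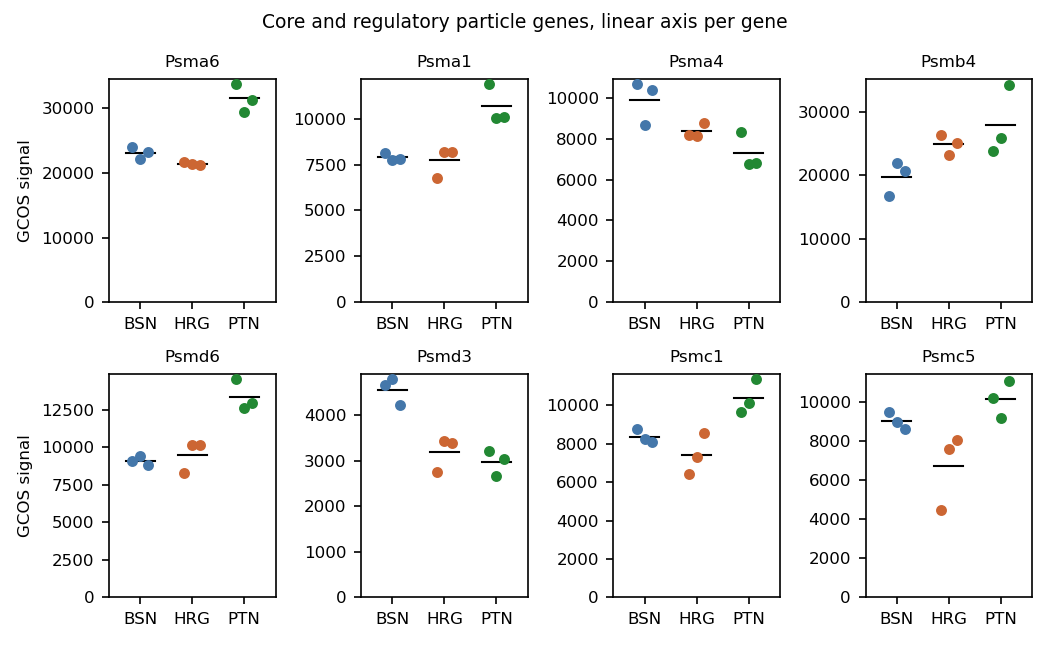
Signal on a linear axis from 0, scaled per gene, of 4 core and 4 regulatory particle genes by medium, with 1 point per array and a black line at the group mean. Psma6, Psma1, Psmd6 and Psmc1 have their 3 PTN points above all others, while Psmd3 and Psma4 are highest in BSN.

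Activators open the core without the ATPase cap. Psme1 and Psme2 form the interferon-inducible PA28 cap, Psme4 encodes PA200, and Psmf1 encodes the inhibitor PI31. Psme2 read 6060, 5271 and 6501 in BSN, 7259, 5474 and 5863 in HRG, and 4680, 4393 and 3431 in PTN. The PTN arrays lay below all others, and BSN and HRG overlapped. HRG was 1.49-fold above PTN (log2 0.57, SE 0.161, adjusted p = 0.0195). Leaving out HRG replicate 1 (0.0882) or PTN replicate 3 (0.0833) ended that call. PTN was 1.43-fold below BSN (log2 -0.52, SE 0.161, adjusted p = 0.0354), which was lost with median centring (log2 -0.3, adjusted p = 0.152), in the fit of these groups alone (0.0526), and without BSN replicate 1 (0.0941), BSN replicate 3 (0.131), PTN replicate 2 (0.0546) or PTN replicate 3 (0.14).

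Psme1, the partner of Psme2, was variable: 4464, 3707 and 7551 in BSN, 6827, 5888 and 6975 in HRG, and 7008, 3099 and 4831 in PTN. All groups overlapped and none of its differences passed (HRG against PTN log2 0.47, SE 0.283, adjusted p = 0.249). That comparison passed without PTN replicate 1 (log2 0.76, adjusted p = 0.0425) and with array weights (adjusted p = 0.0249). Psmf1 read 4034, 4566 and 5285 in BSN, 6310, 4236 and 4087 in HRG, and 4257, 2695 and 2567 in PTN. HRG and PTN overlapped, yet HRG passed at 1.55-fold above PTN (log2 0.63, SE 0.215, adjusted p = 0.0484), a call lost in 13 of 19 alternatives and without any single array except PTN replicate 1, with adjusted p up to 0.204. The 3 probe sets of Psme4 passed in no comparison.

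Assembly chaperones bring the rings and the regulatory base together and leave the finished particle. Their 7 genes gave 2 higher and 1 lower in HRG against PTN, 42.9% of them against 25.8% of all kept probe sets. In PTN against BSN 1 was higher, 14.3% against 22.5% of all. In HRG against BSN 0 passed (by limma, also 0 at an unadjusted p under 0.05), against 15.8% of all. Psmd5 (S5b), a base chaperone, read 6353, 6766 and 5616 in BSN, 6271, 6802 and 5468 in HRG, and 8401, 8374 and 8699 in PTN. The BSN and HRG arrays overlapped and PTN stood above them. PTN was 1.36-fold above BSN (log2 0.45, SE 0.131, adjusted p = 0.028) and HRG 1.38-fold below PTN (log2 -0.46, SE 0.131, adjusted p = 0.0202). The former was lost after quantile normalization (0.0515) and without BSN replicate 1 (0.0632), BSN replicate 3 (0.119), PTN replicate 2 (0.0599) or PTN replicate 3 (0.0771), and the latter on leaving out HRG replicate 3 (0.0983) or PTN replicate 3 (0.0584).

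Psmd10 (gankyrin), another base chaperone, read 1832, 1730 and 1986 in BSN, 1971, 1791 and 2149 in HRG, and 1572, 1286 and 1512 in PTN. Here PTN was the lowest group, with HRG 1.35-fold above it (log2 0.43, SE 0.141, adjusted p = 0.0394). Psmg2, a chaperone of the alpha ring, read 6109, 5498 and 5398 in BSN, 6108, 6277 and 6764 in HRG, and 4717, 5027 and 4940 in PTN. HRG was 1.3-fold above PTN without overlap (log2 0.38, SE 0.12, adjusted p = 0.0343). The Psmd10 call was lost in 10 of 19 alternatives, including those without any of the HRG arrays, BSN replicate 1, PTN replicate 2 or PTN replicate 3 (adjusted p up to 0.146). The Psmg2 call was lost in 7, including those without any of the HRG arrays, PTN replicate 2 or PTN replicate 3 (up to 0.126) and median centring (0.2). Psmd9, Psmg1, Psmg3 and Psmg4 passed in no comparison.

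The E2 enzymes had 34 kept probe sets for 25 genes. In HRG against BSN 2 were higher and 1 lower, in HRG against PTN 2 higher and 6 lower, and in PTN against BSN 4 higher and 3 lower, with medians of 0.07, 0.13 and -0.05. The shares called, 8.82%, 23.5% and 20.6% in that order, lay below or near those of all kept probe sets (15.8%, 25.8% and 22.5%). Of the 34, 29 belong to E2 enzymes for ubiquitin and 5 to the others, too few to compare. The E2 enzymes for ubiquitin-like proteins, Ube2f and Ube2m for NEDD8 and Ube2l6 for ISG15, and the catalytically inactive variant Ube2v2 passed in no comparison. Among these 5 kept probe sets limma gave 1 an unadjusted p under 0.05, in PTN against BSN.

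Ube2t, which ubiquitinates Fanconi anemia proteins in DNA crosslink repair, gave the largest difference in HRG against BSN among the members called. It read 1588, 1506 and 1519 in BSN, 915, 872 and 716 in HRG, and 1757, 1313 and 1093 in PTN. Every HRG array lay below every other array, and PTN spread around BSN. HRG was 1.84-fold below BSN (log2 -0.88, SE 0.185, adjusted p = 0.00602), which passed under all 18 alternatives that gave it a value. HRG was 1.63-fold below PTN (log2 -0.7, SE 0.185, adjusted p = 0.0141), a call lost without HRG replicate 3 (0.0638).

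Ube2s, which extends ubiquitin chains on substrates of the anaphase promoting complex, read 897, 535 and 1030 in BSN, 883, 727 and 345 in HRG, and 1410, 1238 and 1412 in PTN. It was named after its values were seen. PTN lay above all other arrays, and the third HRG array was the lowest. The log2 difference of HRG against PTN was -1.14 (SE 0.319, adjusted p = 0.0199). Without HRG replicate 3 it was -0.74 (0.0739) and without PTN replicate 3 it was -1.1 (0.056), neither of which passed. The HRG mean of 652 lies under the mean 40th percentile of its arrays (691), so the log2 size is uncertain and no fold is given.

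Ube2b (Rad6b), an E2 for histone H2B and for post-replication repair, had kept probe sets that disagreed. On one it read 6539, 5648 and 5113 in BSN, 6488, 7321 and 7336 in HRG, and 10007, 9538 and 9583 in PTN. PTN stood above all other arrays. It was 1.69-fold above BSN (log2 0.76, SE 0.13, adjusted p = 0.00164), a call kept under all 19 alternatives, and HRG was 1.38-fold below PTN (log2 -0.46, adjusted p = 0.0195), lost without HRG replicate 1 (0.0745). On the other the means were 6062 ± 377, 6364 ± 303 and 5685 ± 380 in the order BSN, HRG and PTN, and no comparison passed (PTN against BSN log2 -0.09, adjusted p = 0.616).

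Ube2d2, of the widely used Ube2d (UbcH5) family, disagreed in the same way. On the probe set with the lowest signal it read 1448, 1688 and 1218 in BSN, 953, 1617 and 1407 in HRG, and 2060, 2735 and 2383 in PTN. PTN did not overlap the other groups. HRG was 1.83-fold below PTN (log2 -0.87, SE 0.203, adjusted p = 0.0071), a call kept under all 19 alternatives. PTN was 1.65-fold above BSN (log2 0.72, SE 0.203, adjusted p = 0.0233), lost without BSN replicate 1 (0.0614), BSN replicate 3 (0.0999), PTN replicate 2 (0.083) or PTN replicate 3 (0.0599). Its 2 other kept probe sets, with group means of 10350 to 14287, passed in no comparison. Near-identical Ube2d copies exist, and 3 further probe sets list Ube2d2 and Ube2d3 together, so values of these genes are uncertain.

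Ube2d1, another member of that family, read 1543, 1045 and 560 in BSN, 945, 1135 and 672 in HRG, and 372, 621 and 438 in PTN on its kept probe set. PTN and BSN overlapped, yet the log2 difference of -1.03 passed (SE 0.339, adjusted p = 0.0453). It was lost in 10 of 18 alternatives, including those without BSN replicate 1, BSN replicate 2, HRG replicate 1, HRG replicate 2, PTN replicate 1 or PTN replicate 3 (adjusted p up to 0.189). The PTN mean of 477 lies below the 40th percentile (632), so the log2 size is uncertain and no fold is given.

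Ube2k, which builds chains linked through lysine 48 of ubiquitin, was called on both of its probe sets but in different comparisons. On one it read 16528, 15931 and 14185 in BSN, 13696, 12890 and 11809 in HRG, and 21508, 16344 and 17336 in PTN. HRG lay below all other arrays and was 1.43-fold below PTN (log2 -0.52, SE 0.134, adjusted p = 0.013), a call lost without HRG replicate 3 (0.06). On the other it read 4331, 4566 and 4581 in BSN, 4916, 4539 and 5241 in HRG, and 5350, 6191 and 6969 in PTN, with PTN above all others. There PTN was 1.36-fold above BSN (log2 0.45, SE 0.134, adjusted p = 0.0304), lost in 6 of 19 alternatives, including the fits without any of the BSN arrays, PTN replicate 2 or PTN replicate 3 (adjusted p up to 0.118).

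Ube2j2, an E2 anchored in the endoplasmic reticulum, read 6257, 6863 and 6830 in BSN, 6749, 6694 and 7384 in HRG, and 9910, 8155 and 9291 in PTN. The PTN arrays stood above the others. PTN was 1.37-fold above BSN (log2 0.45, SE 0.125, adjusted p = 0.0214), which was lost after quantile normalization (0.0604) and without BSN replicate 1 (0.0779), BSN replicate 3 (0.0553) or PTN replicate 3 (0.0644). HRG was 1.31-fold below PTN (log2 -0.39, adjusted p = 0.0369), a call named after its value was seen. It was lost in 9 of 19 alternatives, including those without any of the HRG arrays, BSN replicate 3, PTN replicate 1 or PTN replicate 3 (up to 0.111).

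Ube2q2 had the larger of the rises called in HRG against BSN. It read 6134, 5808 and 3691 in BSN, 7828, 9007 and 7607 in HRG, and 6566, 5272 and 7568 in PTN. HRG lay above all other arrays, and the third BSN array was the lowest. HRG was 1.6-fold above BSN (log2 0.67, SE 0.196, adjusted p = 0.0338). Without BSN replicate 3 the log2 difference was 0.44 and did not pass (0.141), nor did it pass without HRG replicate 1 (0.0699), HRG replicate 2 (0.129) or HRG replicate 3 (0.0709), without the filter (0.0572) or without the intensity trend (0.0531).

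Ube2h, an E2 of the CTLH ligase, read 1996, 1830 and 1921 in BSN, 2287, 2925 and 2669 in HRG, and 2089, 1881 and 2010 in PTN on the probe set with the higher signal. HRG did not overlap the other groups. HRG was 1.36-fold above BSN (log2 0.45, SE 0.135, adjusted p = 0.0407) and 1.31-fold above PTN (log2 0.39, adjusted p = 0.04999). With the replicate number as a block neither passed (0.0594 and 0.0696). Over all alternatives the former was lost in 9 of 19 and the latter in 14, including the fits without HRG replicate 2 (0.174 and 0.182) or HRG replicate 3 (0.128 and 0.133), any of the BSN arrays, PTN replicate 2 or PTN replicate 3. Its other probe set did not pass (HRG against BSN log2 0.57, adjusted p = 0.119).

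Ube2r2 (Cdc34b), an E2 of the cullin ligases, read 4001, 3790 and 3626 in BSN, 3839, 3484 and 4078 in HRG, and 2579, 2695 and 3177 in PTN. PTN lay below the others, which overlapped. HRG was 1.35-fold above PTN (log2 0.43, SE 0.133, adjusted p = 0.0302) and PTN 1.35-fold below BSN (log2 -0.44, SE 0.133, adjusted p = 0.0328). Each call was lost in 7 of 19 alternatives. With median centring they were 0.32 (adjusted p = 0.158) and -0.22 (adjusted p = 0.335). The former was lost without HRG replicate 1, HRG replicate 3, PTN replicate 1 or PTN replicate 2 (up to 0.115), and the latter without any of the BSN arrays or PTN replicate 2 (up to 0.103).

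Ube2n (Ubc13), which builds chains linked through lysine 63, read 3607, 3286 and 3162 in BSN, 3235, 3208 and 2873 in HRG, and 2255, 2478 and 2558 in PTN on its kept probe set. PTN lay below all other arrays. It was 1.38-fold below BSN (log2 -0.46, SE 0.127, adjusted p = 0.0209), lost after quantile normalization (0.0723), with median centring (log2 -0.25, adjusted p = 0.244) and without BSN replicate 1 (0.0807). Its partner Ube2v2 passed in no comparison.

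**Figure D4:**
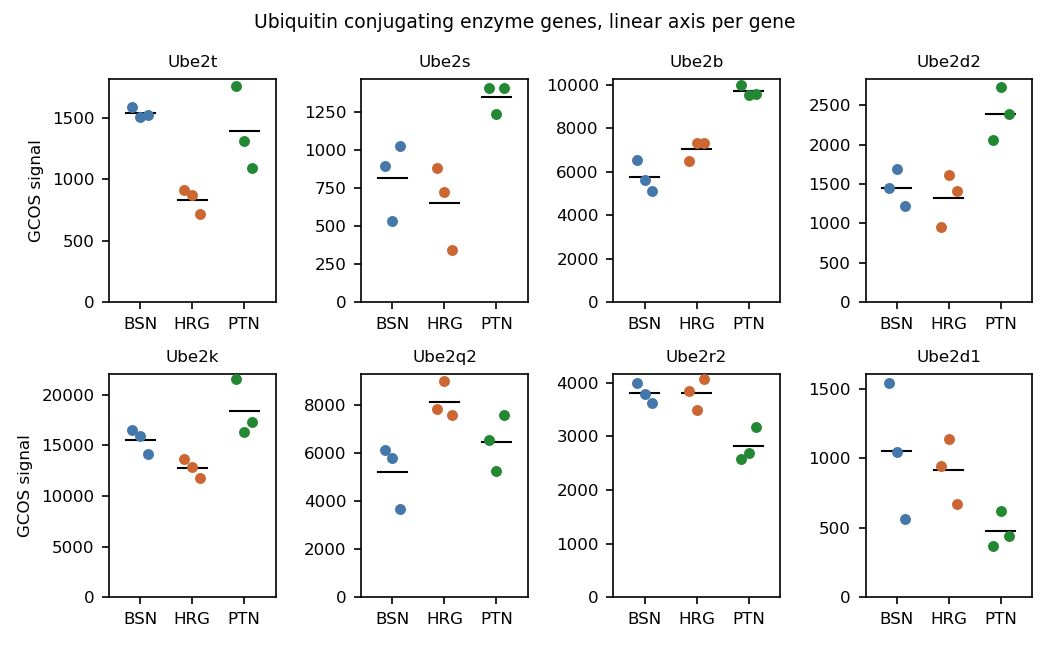
Signal on a linear axis from 0, scaled per gene, of 8 E2 genes by medium, with 1 point per array and a black line at the group mean. Ube2t has its 3 HRG points below all others, the probe sets shown of Ube2b and Ube2d2 are highest in PTN, and the Ube2d1 points of BSN and PTN overlap.

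The rest of the pathway was counted from lists of genes upstream and downstream of the members. The background for each list is the share of all kept probe sets called. It was 15.8% in HRG against BSN, 25.8% in HRG against PTN and 22.5% in PTN against BSN. Of 11 kept probe sets of ubiquitin genes, E1 enzymes and ubiquitin-like modifiers, 1 was higher and 1 lower in HRG against BSN, 2 were higher and 5 lower in HRG against PTN, and 4 were higher in PTN against BSN. Those 4 were Nae1, part of the E1 for NEDD8, at 12731 ± 1599 in PTN against 5288 ± 252 in BSN (2.39-fold, adjusted p = 0.000161), Sumo3 (1.78-fold, adjusted p = 0.00474), Sumo2 (1.49-fold, adjusted p = 0.00368) and Uba2, part of the E1 for SUMO (1.43-fold, adjusted p = 0.00697).

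Among 22 kept probe sets for assembly factors, shuttles and substrate delivery, the counts higher and lower were 2 and 1, 2 and 2, and 3 and 3 in the order HRG against BSN, HRG against PTN and PTN against BSN. Of all kept probe sets 15.8%, 25.8% and 22.5% were called in that order. Ubqln1, a shuttle that carries ubiquitinated proteins to the proteasome, was 2.16-fold higher in PTN than in BSN on the probe set with the higher signal (21967 ± 2195 against 10252 ± 1943, adjusted p = 0.000328) and did not pass on the other (adjusted p = 0.667). Sqstm1 (p62), an autophagy receptor for ubiquitinated cargo, was 2.01-fold lower in PTN than in BSN on the probe set with the highest signal (adjusted p = 0.00118), and its 2 other kept probe sets did not pass. Nsfl1c was 1.86-fold lower in PTN than in BSN (adjusted p = 0.000931) and 1.45-fold lower in HRG than in BSN (adjusted p = 0.019). Ubqln2, on its kept probe set, was 1.5-fold higher in HRG than in BSN (adjusted p = 0.00728) and 1.39-fold higher than in PTN (adjusted p = 0.0155).

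Of 31 kept probe sets of deubiquitinases, 0 were higher and 3 lower in HRG against BSN, 3 higher and 5 lower in HRG against PTN, and 6 higher and 6 lower in PTN against BSN. The shares of all kept probe sets called were 15.8%, 25.8% and 22.5% in the same order. Usp1, which removes ubiquitin from Fancd2 and PCNA, was lower in HRG than in BSN on both probe sets: 8263 ± 733 against 13913 ± 1505 on the one with the higher signal (1.68-fold, adjusted p = 0.00236). In PTN against BSN its probe sets passed in opposite directions, 1.6-fold higher on that one (adjusted p = 0.00451) and 2.01-fold lower on the other (adjusted p = 0.0026). Of 62 kept probe sets of E3 scaffolds and adaptors, the counts were 3 higher and 6 lower, 6 and 8, and 7 and 6 in the order used above. Cdc20, an activator of the anaphase promoting complex with which Ube2s works, was 1.81-fold lower in HRG than in BSN (1617 ± 299 against 2926 ± 403, adjusted p = 0.00315) and 2.33-fold lower than in PTN (adjusted p = 0.000158) on the probe set with the highest signal.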

How the data were processed

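RNA from cultured rat ureteric buds was amplified by a double in vitro transcription and hybridised to 9 one-colour arrays, per the labels' protocols. The authors deposited GCOS signal intensity values on a linear scale, and no source used here names the GCOS version or its settings. Trimmed means, without the outer 2% on each side, were 2500.48 to 2500.58 per array, so no further scaling was applied. The number of arrays limits the precision. Of 15923 probe sets 57 controls were set aside. A probe set was kept when above its array's 40th percentile on at least 3 arrays (10106 kept). The deposited intensities were taken as log2 of the signal plus 16, and folds are on that scale, which understates change at low signals. No fold was given for a group whose mean was under the 40th percentile averaged over its arrays. For Ube2s and Ube2d1, which were kept, the log2 difference is printed all the same.

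All 9 arrays were fitted together in limma 3.58.1 (R 4.3.3; eBayes with an intensity trend, 6 residual degrees of freedom, 12.7 after moderation), and p-values were adjusted by Benjamini-Hochberg over all kept probe sets. Pairs of beta subunits were compared by exact two-sided permutation tests; 6 of the planned tests could be made, the others needing Psmb6. Figures were drawn with matplotlib 3.10.9 in Python 3.11.15. The scripts were tested on simulated data.

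Named were the immunoproteasome genes, their standard counterparts and the PA28 genes. Of the members that passed in each comparison and role, the 4 with the largest moderated t in each direction were also named. In the pathway lists up to 3 in each direction by moderated t were eligible, and only some of these are named. Ube2s and Ube2j2 in HRG against PTN and Uba2 were added after their values were seen. Members and lists were chosen with earlier results of these data known. Replicate numbers were checked for pairing by correlating the deviations of same-numbered arrays from their group means: r was 0.266, 0.332 and 0.118 for HRG with PTN, over 0.1 in all 3 pairs, a hint from the data that the labels do not state. It was -0.0551, 0.13 and 0.0906 for HRG with BSN and -0.097, -0.0112 and -0.0642 for PTN with BSN. Alternatives were other scalings, pseudocounts of 1 and 64, no filter or one at the 60th percentile, no trend, array weights, only the groups compared, a replicate block, and each array left out. Groups came from the labels.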

Additional observations from a re-analysis of the deposited data

How the results depend on the processing

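Of the 39 calls on members, 5 held under every alternative (Ube2t in HRG against BSN, 1 probe set of Ube2d2 and Psma6 in HRG against PTN, 1 of Ube2b and Psmd6 in PTN against BSN) and 34 were lost under at least 1; 7 held with each array left out in turn. Quantile normalization ended 15 calls and median centring 12. In HRG against BSN the 2 members higher became 0 without the filter, 1 without the intensity trend and 1 with the replicate block, and the 2 lower became 1 with median centring, 1 with the filter at the 60th percentile, 5 with array weights and 4 with only the groups compared. In HRG against PTN the 6 higher became 2 after quantile normalization, 1 with median centring and 2 with only the groups compared. In PTN against BSN the 10 higher became 6 after quantile normalization, and the 6 lower became 0 with median centring, 12 with array weights and 2 with only the groups compared. The median of all kept probe sets moves with the scaling by construction; the cause of the other changes was not tested. Array weights called 2439 probe sets in all in HRG against BSN (1594 in the main setting) and 3480 in PTN against BSN (2276).

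Leaving out 1 array gave 0 to 2 members higher and 1 to 5 lower in HRG against BSN (1023 to 2216 called in all), 1 to 8 and 6 to 14 in HRG against PTN (1826 to 3094), and 3 to 11 and 1 to 11 in PTN against BSN (1345 to 3197). With the replicate number as a block, whose pairing the data hint at for HRG and PTN only, 6 members were higher and 13 lower in HRG against PTN (2690 called in all), and 10 were higher and 6 lower in PTN against BSN (2362 in all). The block ended both calls of Ube2h, gave Ube2d1 a call in HRG against PTN (log2 0.92, adjusted p = 0.0332) and changed no other call on members.

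Differences that did not pass and turned in sign were Psme2 in HRG against BSN (-0.01 with array weights, -0.06 to 0.14 without 1 array), Psmb8 in the same comparison (-0.03 with array weights, -0.08 to 0.08) and in PTN against BSN (0.01 after quantile normalization), Psmb5 in HRG against PTN (-0.09 with median centring, -0.05 with array weights, -0.09 to 0.18), Psme1 in PTN against BSN (0.13 with median centring, -0.37 to 0.22), and Psmb8 relative to Psmb5 in PTN against BSN (-0.11 to 0.18). After quantile normalization the last of these differences, Psmb8 relative to Psmb5, was 0.42. Ube2t, Ube2s and Ube2d1 have no value with the filter at the 60th percentile.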
